A study of Zea mays with 10 samples.

Results

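This account concerns hsp70-4 and hsp70-5, maize genes of the HSP70 chaperone family, as measured on cDNA microarrays of immature ears. Members were all EST clones that the array's annotation assigns to either symbol: 43 of 5400 clones, of which 21 carried hsp70-4 (gene identifier 542730) and 22 carried hsp70-5 (gene identifier 542423). Each clone was spotted in 3 successive positions and had its own EST accession, so the clones of a gene are separate probes annotated to the same gene. Values were measured in the F1 hybrid of B73 and H99 and in the inbred lines B73 and H99, all sampled as ears at stage V15 without silks and tips, each genotype as a bulk of 10 plants. Hybrid cDNA was hybridised together with cDNA of an inbred on each of 10 arrays, 5 with B73 and 5 with H99. On replicates 1 to 3 of each inbred (forward arrays) the hybrid carried Cy3 and the inbred Cy5, and on replicates 4 and 5 (reversed arrays) the dyes were exchanged.

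HSP70 proteins bind exposed hydrophobic stretches of unfolded polypeptides and release them in a cycle driven by ATP. J-domain proteins start ATP hydrolysis and nucleotide exchange factors end the cycle, which lets newly made proteins fold and keeps damaged ones from clumping. Plants hold several HSP70 genes of very similar sequence, some induced by heat through heat shock factors and others expressed all the time, so a cDNA probe of one member can also capture transcripts of another. Values of both genes are therefore uncertain as to which HSP70 transcript they count.

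The deposited value of a spot is the log2 ratio of the channels, and the mean over the 3 spots is given here as the value of a clone. Its average over the 5 B73 arrays is called L1 and its average over the 5 H99 arrays L2. Following the study's definitions, d is the mean of L1 and L2, which asks how far the hybrid lies from the average of its parents, and the additive parameter a is L2 minus L1 divided by 2, which asks how far the parents differ. Under the ratio of hybrid to inbred in which the study's design defines these quantities, a negative L1 or L2 is a lower signal in the hybrid. The sources used here do not settle the direction of the deposited ratio, nor whether reversed arrays were turned to the direction of the forward ones, so values are given as positive or negative and as deposited. Turning the sign of the reversed B73 arrays left no member clone called for L1, L2, L1 minus L2 or d. Over all tested clones it left 0, 13, 2 and 2 called, in place of 2235, 66, 1089 and 1352.

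A clone was called where limma's adjusted p (Benjamini and Hochberg, over all 5357 clones tested) was under 0.05. All 10 arrays were separate labellings of one RNA pool per genotype, so p-values reflect how far repeated labelling and hybridisation varied, not how far plants did. Log ratios give no level, so the tissue could not be checked against kn1, ZAG1 or ZAG3, and in whole ears fewer cells of a type and less RNA per cell cannot be told apart. Over all clones the forward B73 arrays correlated with the reversed ones at 0.381 to 0.542, while for H99 this was -0.169 to 0.223. The spread of all spots was 0.218 to 0.362 (SD) on the B73 arrays and 0.172 to 0.228 on the H99 arrays. For the members the median SD of the 3 spots was 0.045, against 0.053 for all clones.

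Averaged over their clones, neither gene passed the test in any of the contrasts. The gene mean of hsp70-5 was negative on all 5 B73 arrays, at -0.16, -0.19, -0.05, -0.05 and -0.06, and on the 3 forward H99 arrays, at -0.18, -0.19 and -0.25, but positive on the 2 reversed H99 arrays, at 0.15 and 0.04. That of hsp70-4 stayed nearer to 0, at -0.07, -0.07, -0.17, -0.07 and 0.0032 on the B73 arrays and at 0.0022, -0.03, -0.04, 0.09 and -0.03 on the H99 arrays. For hsp70-4 the values on the B73 and the H99 arrays overlapped, and so did those of hsp70-5.

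L1 of hsp70-5 was -0.10 ± 0.0669 and L2 was -0.09 ± 0.172 (SD, n = 5 arrays each), with limma adjusted p-values of 0.211 for L1 and 0.551 for L2. Its L2 was -0.0466 without H99 replicate 3 and -0.147 without H99 replicate 4, and its L1 minus L2 was 0.0463 without H99 replicate 4; none of these was called. For hsp70-4, L1 was -0.08 ± 0.0628 and L2 was 0.00016 ± 0.0536 (SD, n = 5 arrays each), with limma adjusted p-values of 0.250 and 0.999. In the same table of genes and unnamed clones, 40.4% of 4763 entries passed for L1 and 0.987% for L2. The difference L1 minus L2 was -0.01 ± 0.0891 (SE) for hsp70-5 and -0.08 ± 0.0729 for hsp70-4, with limma adjusted p-values of 0.928 and 0.474 where 19.5% of entries passed. For d the values were -0.09 ± 0.0446 (SE) and -0.04 ± 0.0364, with limma adjusted p-values of 0.131 and 0.460 where 24.1% of entries passed. The forward arrays alone gave hsp70-5 a d of -0.17 and an L2 of -0.21, both past the threshold (limma adjusted p = 0.00519 and 0.0297), and the reversed arrays alone gave 0.02 and 0.09, neither past it.

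**Figure D1:**
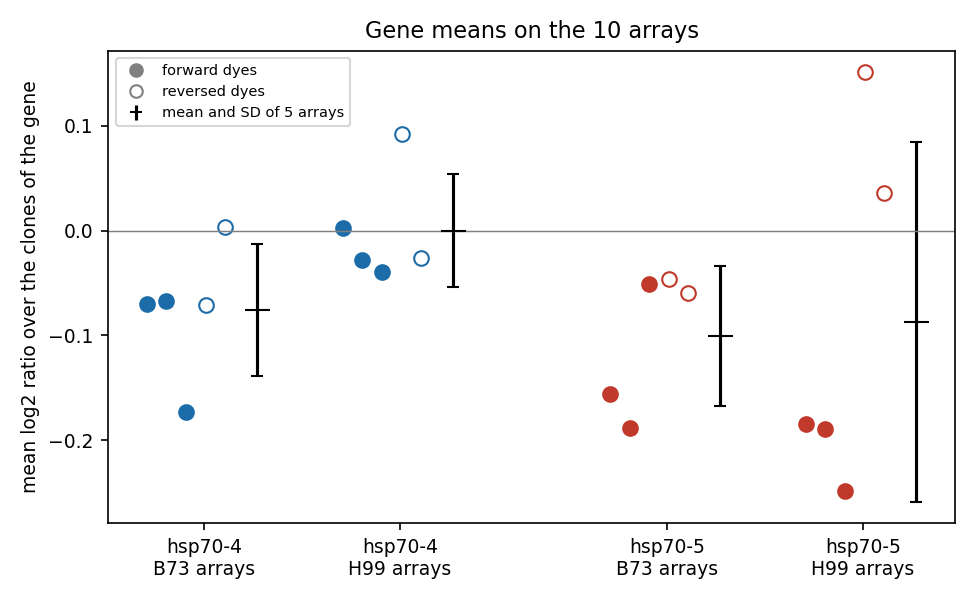
Mean log2 ratio over the clones of each gene on each array (points; filled for forward dyes, open for reversed dyes), with the mean and SD of the 5 arrays beside them. The 3 forward H99 arrays of hsp70-5 lie between -0.18 and -0.25 and the 2 reversed ones above 0, while the 5 arrays of the other sets lie closer together.

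Single clones gave a different picture on the B73 arrays. Of 22 hsp70-5 clones 14 were called for L1, 5 positive and 9 negative, and of 20 tested hsp70-4 clones 9 were called, 3 positive and 6 negative. The share of all tested clones called was 41.7%, with 21% positive and 20.7% negative, beside 63.6% of the hsp70-5 clones and 45% of the hsp70-4 clones. Clones of the same gene thus passed the test with opposite signs, and over all tested clones both signs were also about equally common among the calls. All 5 B73 arrays were negative for 8 of 22 hsp70-5 clones and 5 of the 19 hsp70-4 clones with all values (17.3% of all such clones), and all 5 were positive for 5 of 22 and 2 of 19 (20.4%). L1 ran between -1.05 and 0.32 over the clones of hsp70-5 and between -0.38 and 0.25 over those of hsp70-4. Its SD over clones was 0.336 for hsp70-5 and 0.179 for hsp70-4, against 0.229 over all tested clones, and its median was -0.14 and -0.11, against -0.01 over all.

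The lowest clones by far were clones 9 and 22 of hsp70-5, clones being numbered within their gene in the order of the deposited table. In the lists that follow, the 5 values of an inbred stand in the order of replicates 1 to 5, the last 2 being from reversed arrays. Clone 9 had -1.36, -1.64, -0.55, -0.58 and -1.11 on the B73 arrays and -0.72, -0.58, -0.40, 0.15 and -0.33 on the H99 arrays. Clone 22 had -0.91, -0.98, -0.61, -0.49 and -0.76 on the B73 arrays and -0.27, -0.24, -0.44, 0.21 and -0.15 on the H99 arrays. Every B73 array was negative for both clones, in both dye orientations, and of the H99 arrays only replicate 4 was positive. For clone 9 this gave an L1 of -1.05 ± 0.478 and an L2 of -0.38 ± 0.333 (SD, n = 5 arrays each), with limma adjusted p-values of 3.00e-05 and 0.174. For clone 22, L1 was -0.75 ± 0.202 and L2 was -0.18 ± 0.241 (SD, n = 5 arrays each), with limma adjusted p-values of 7.31e-06 and 0.318. The L1 call of both held whichever array was left out. Within an array the median SD of the 3 spots was 0.0634 for clone 9 and 0.055 for clone 22, small beside these values. Of all 5357 tested clones 10 had an L1 at or below that of clone 9, and 48 at or below that of clone 22, these clones included. The next lowest member clone was hsp70-4 clone 12, with an L1 of -0.38.

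Another 7 clones of hsp70-5 were called negative for L1. Clone 15 had -0.62, -0.40, -0.18, -0.22 and -0.11 on the B73 arrays and -0.27, -0.26, -0.24, 0.03 and -0.08 on the H99 arrays. Clone 12 had -0.41, -0.44, -0.43, -0.22 and 0.04 on the B73 arrays and -0.15, -0.18, -0.21, 0.19 and 0.00067 on the H99 arrays. Clone 5 had -0.25, -0.60, -0.25, -0.19 and -0.10 on the B73 arrays and -0.34, -0.39, -0.23, 0.26 and -0.08 on the H99 arrays. Of these, clones 5 and 15 were negative on all B73 arrays, and clone 12 was positive on B73 replicate 5 only. Clone 13 had -0.20, -0.34, -0.46, -0.22 and -0.04 on the B73 arrays and -0.16, -0.26, -0.02, 0.03 and -0.01 on the H99 arrays. Clone 21 had -0.43, -0.53, -0.17, 0.12 and -0.12 on the B73 arrays and -0.09, 0.06, -0.07, 0.15 and -0.04 on the H99 arrays. Clone 18 had -0.36, -0.20, -0.10, -0.25 and -0.04 on the B73 arrays and -0.50, -0.24, -0.12, 0.05 and -0.08 on the H99 arrays. Clones 13 and 18 were negative on every B73 array, while clone 21 was positive on the first reversed one. Clone 10 had -0.08, -0.07, -0.28, -0.38 and -0.03 on the B73 arrays and -0.10, -0.03, -0.05, -0.19 and -0.26 on the H99 arrays, the only member clone negative on all 10 arrays. A single sign on all 10 arrays was found for 4.5% of the clones with all values. L1 of these 7 clones ran between -0.31 (clone 15, limma adjusted p = 0.00362) and -0.17 (clone 10, limma adjusted p = 0.0411). The calls of clones 12, 13 and 15 held without any single array. Clone 5 lost its call without B73 replicate 2, and clones 10, 18 and 21 each lost theirs when either B73 replicate 1 or B73 replicate 2 was left out. Those of clones 10 and 18 were also lost without several other arrays, among them B73 replicates 3 and 4.

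The 5 hsp70-5 clones called positive for L1 were positive on nearly every B73 array. Clone 20 had 0.32, 0.12, 0.50, 0.38 and 0.08 on the B73 arrays and -0.09, -0.14, -0.38, 0.28 and 0.22 on the H99 arrays. Clone 3 had 0.33, 0.41, 0.30, 0.15 and 0.12 on the B73 arrays and 0.03, -0.06, -0.74, -0.03 and 0.04 on the H99 arrays. Clone 16 had 0.32, 0.37, 0.33, 0.11 and 0.10 on the B73 arrays and -0.21, -0.09, -0.13, 0.05 and -0.03 on the H99 arrays. All of these B73 values were above 0, in both orientations. Clone 6 had 0.23, 0.24, 0.14, 0.32 and 0.23 on the B73 arrays and -0.24, -0.20, -0.18, 0.17 and 0.23 on the H99 arrays. Clone 2 had 0.20, 0.21, 0.34, 0.24 and -0.01 on the B73 arrays and -0.19, -0.21, -0.20, 0.19 and 0.26 on the H99 arrays. Clone 6 was again positive on all B73 arrays, and clone 2 on all but the last. L1 was 0.28 for clone 20, 0.26 for clone 3, 0.25 for clone 16, 0.23 for clone 6 and 0.20 for clone 2, with limma adjusted p-values between 0.00492 (clone 16) and 0.0467 (clone 2). The calls of clones 6 and 16 held without any single array, whereas clones 2, 3 and 20 lost theirs without B73 replicate 1 and without B73 replicate 3. Clones 2 and 3 also lost theirs without B73 replicate 2, and clone 2 without further arrays.

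The highest L1 of the gene belonged to clone 8 at 0.32 ± 0.278 (SD, n = 5), which missed the threshold at a limma adjusted p of 0.0536. Its values were 0.16, -0.04, 0.34, 0.67 and 0.50 on the B73 arrays and -0.18, -0.46, -0.70, 0.41 and 0.37 on the H99 arrays. The 2 reversed B73 arrays were its highest and the 3 forward H99 arrays its lowest. The highest L2 of the gene, 0.15, was that of clone 4, with 0.13, 0.0077, 0.04, 0.04 and -0.02 on the B73 arrays and 0.14, 0.18, -0.16, 0.41 and 0.16 on the H99 arrays. Of its H99 arrays only replicate 3 was negative, and the clone was called in no contrast. The remaining 6 hsp70-5 clones had an L1 between -0.16 and 0.13.

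**Figure D2:**
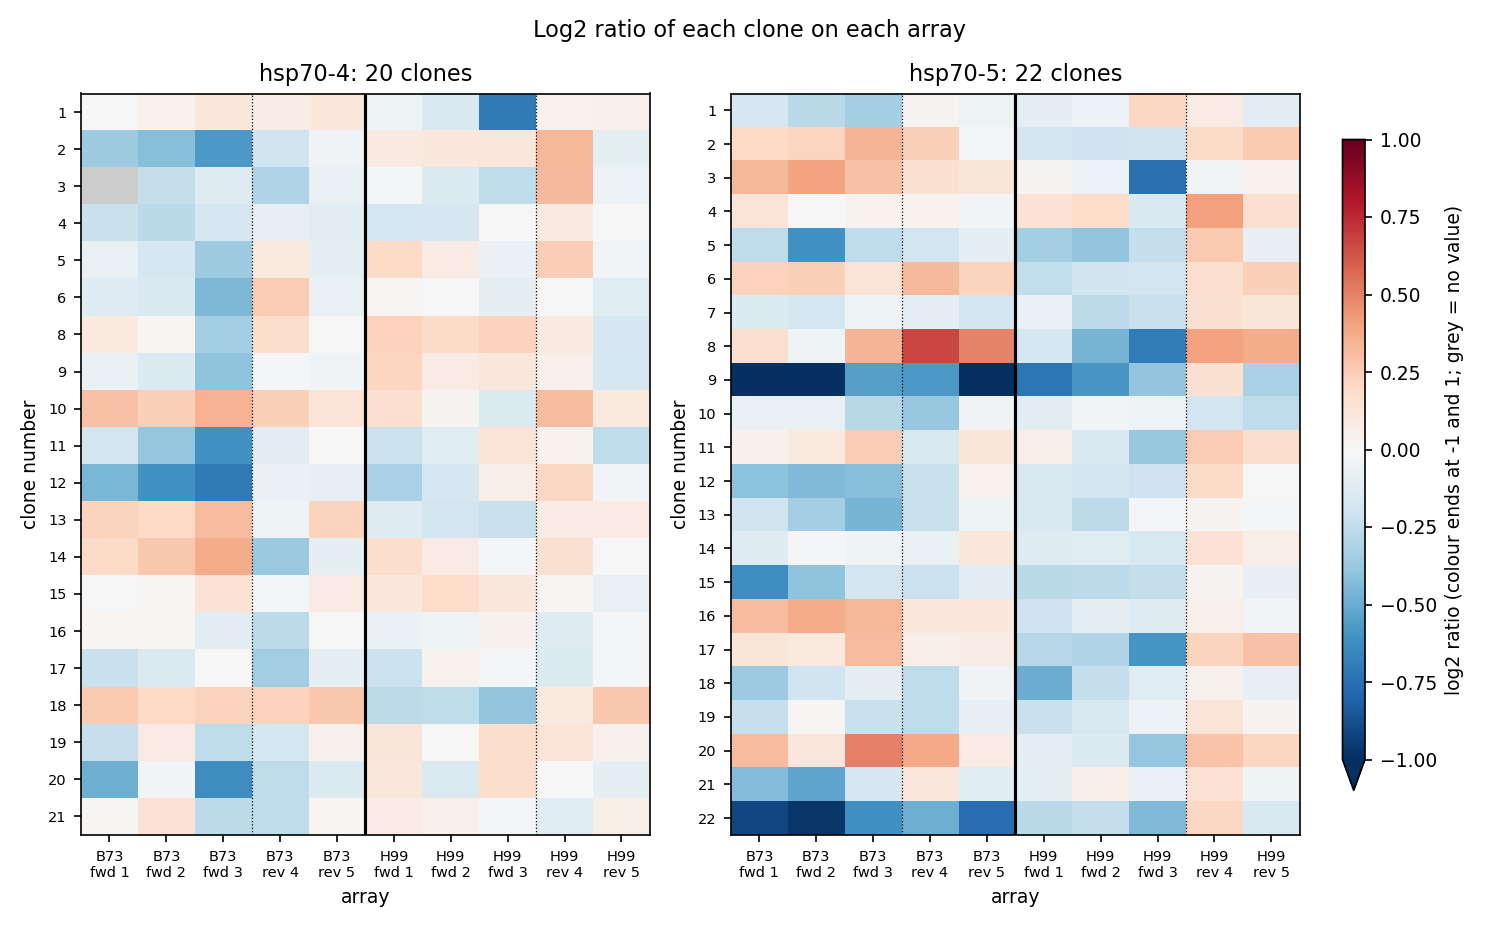
Log2 ratio of each tested clone (rows, clone number) on each of the 10 arrays (columns, B73 arrays left of the solid line and H99 arrays right of it, reversed arrays right of the dotted lines). Colour runs between -1 (blue) and 1 (red), grey marks a missing value, and hsp70-4 clone 7 is not drawn. Rows of hsp70-5 such as clones 9 and 22 are blue on every B73 array, and most rows turn red or pale on the reversed H99 arrays.

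The 9 called hsp70-4 clones were 6 negative and 3 positive. Clone 12 had the lowest L1, -0.38 ± 0.296 (SD, n = 5; limma adjusted p = 0.00378), with -0.46, -0.60, -0.71, -0.06 and -0.08 on the B73 arrays and -0.32, -0.17, 0.06, 0.21 and -0.03 on the H99 arrays. Its forward B73 arrays were all at -0.46 or below and its reversed ones at -0.06 and -0.08, so most of L1 came from the forward arrays. Clone 2 had -0.36, -0.43, -0.57, -0.20 and -0.04 on the B73 arrays and 0.09, 0.10, 0.12, 0.33 and -0.09 on the H99 arrays. Clone 20 had -0.49, -0.02, -0.62, -0.26 and -0.13 on the B73 arrays and 0.11, -0.14, 0.17, -0.0023 and -0.09 on the H99 arrays. Both were negative on every B73 array. Clone 11 had -0.18, -0.39, -0.60, -0.11 and 0.006 on the B73 arrays and -0.21, -0.12, 0.13, 0.04 and -0.26 on the H99 arrays. Clone 4 had -0.22, -0.27, -0.17, -0.08 and -0.10 on the B73 arrays and -0.18, -0.17, -0.00033, 0.09 and 0.0077 on the H99 arrays. Clone 17 had -0.23, -0.14, 0.0043, -0.35 and -0.09 on the B73 arrays and -0.21, 0.03, -0.02, -0.14 and -0.02 on the H99 arrays. B73 values of clone 4 were all negative, and those of clones 11 and 17 all but 1. L1 of these 5 clones lay between -0.32 (clone 2, limma adjusted p = 0.00326) and -0.16 (clone 17, limma adjusted p = 0.0466). Clones 2, 12 and 20 kept their calls without any single array. Clones 4, 11 and 17 did not, each losing its call without B73 replicate 2 among others.

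Positive calls of hsp70-4 were those of clones 10, 18 and 13. Clone 10 had 0.29, 0.24, 0.34, 0.24 and 0.14 on the B73 arrays and 0.16, 0.02, -0.14, 0.32 and 0.10 on the H99 arrays. Clone 18 had 0.26, 0.20, 0.23, 0.23 and 0.27 on the B73 arrays and -0.26, -0.26, -0.40, 0.10 and 0.27 on the H99 arrays. Clone 13 had 0.23, 0.20, 0.32, -0.04 and 0.22 on the B73 arrays and -0.13, -0.19, -0.22, 0.08 and 0.08 on the H99 arrays. All B73 arrays of clones 10 and 18 were positive, with an SD over arrays of only 0.0297 for clone 18. L1 was 0.25 for clone 10, 0.24 for clone 18 and 0.18 for clone 13, with limma adjusted p-values of 0.00585, 0.0225 and 0.0338. The call of clone 10 held without any single array, while clones 13 and 18 each lost theirs when any single forward B73 array was left out. That of clone 13 was also lost without B73 replicate 5.

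Clones 8 and 1 marked the ends of L2 for hsp70-4, at 0.11 and -0.16, and passed no test. Clone 8 had 0.09, 0.02, -0.34, 0.18 and 0.001 on the B73 arrays and 0.23, 0.19, 0.23, 0.09 and -0.17 on the H99 arrays. Clone 1 had -0.006, 0.03, 0.12, 0.07 and 0.11 on the B73 arrays and -0.05, -0.15, -0.70, 0.04 and 0.05 on the H99 arrays. A single array, H99 replicate 3, made the low L2 of clone 1. The other 9 tested clones of the gene had an L1 between -0.18 and 0.07. Clone 7 had a value on 1 array only, 0.11 on H99 replicate 4, and was not tested.

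On the H99 arrays no member clone was called for L2 by limma, where 1.23% of all tested clones were called. With each clone's own variance no member clone was called for L2 either, where 7 of all 5357 tested clones were. At an unadjusted p under 0.05 there were 5 of 22 hsp70-5 clones and 0 of 20 hsp70-4 clones, against 15.4% of all tested clones. L2 of hsp70-5 was negative in 19 of 22 clones, and that of hsp70-4 in 10 of 20, against 50.9% of all tested clones. Its range was -0.38 to 0.15 for hsp70-5 and -0.16 to 0.11 for hsp70-4. The median L2 was -0.08 for hsp70-5 and -0.01 for hsp70-4, and -0.0021 over all tested clones. SDs over clones were 0.100 and 0.0829, near the 0.112 of all tested clones. From the forward arrays alone, 10 member clones were called for L2 (709 of all tested clones), and from the reversed arrays alone 0 (81). Because the clones of a gene share their annotation and their arrays, these counts of clones are no replicates of the gene.

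**Figure D3:**
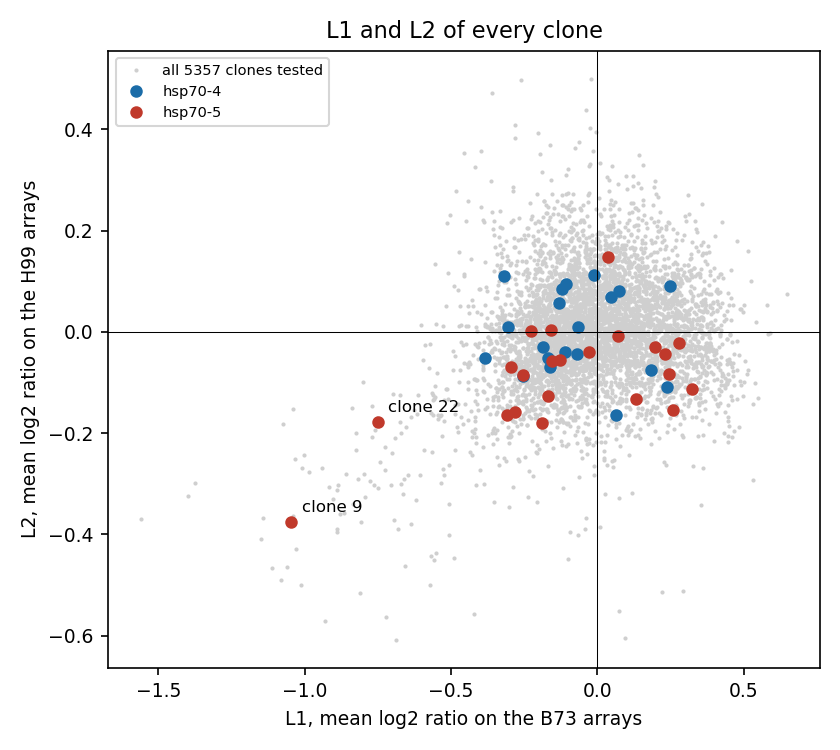
L1 (horizontal axis, log2) and L2 (vertical axis, log2) of every tested clone, with hsp70-4 in blue, hsp70-5 in red and all 5357 tested clones in grey. Most member clones lie within the grey cloud on both sides of 0 in L1, and clones 9 and 22 of hsp70-5 are the lowest members at -1.05 and -0.75, among the few clones of the whole array that reach so far.

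Most hsp70-5 clones lay lower on the forward than on the reversed H99 arrays. The reversed arrays were replicates 4 and 5 only, so dye orientation cannot be told apart from replicate number. Of the 22 hsp70-5 clones 17 were negative on all 3 forward H99 arrays, as were 23.2% of the clones with all 10 values. On both reversed ones 11 were positive, as were 33.4%. Both held for 9 of 22, and for 4 of the 19 hsp70-4 clones with all values, against 7.63% of all such clones. None of the 22 was positive on all 3 forward H99 arrays (24% of all clones), and 1 was negative on both reversed ones (34.7%). These were combined in 0 of 22 hsp70-5 clones and in 0 of the 19 hsp70-4 clones (7.21%). The reversed mean exceeded the forward mean in 20 of 22 hsp70-5 clones, where 47.7% of all clones did so, and in 8 of the 19 hsp70-4 clones with all values. On the B73 arrays this was the case for 12 of 22 hsp70-5 clones and 12 of 19 hsp70-4 clones, against 49.2% of all clones. The hsp70-5 clones whose reversed H99 mean lay below the forward one were clones 1 and 10.

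For the gene mean of hsp70-5, forward minus reversed was -0.30 ± 0.0925 (SE) on the H99 arrays, with forward arrays at -0.21 ± 0.0359 (SD, n = 3) and reversed arrays at 0.09 ± 0.0817 (SD, n = 2). This missed the threshold (limma adjusted p = 0.0754), where 4.30% of entries passed. On the B73 arrays it was -0.08 ± 0.0925 (SE, limma adjusted p = 0.588). For hsp70-4 the values were -0.07 ± 0.092 (SE) on the B73 arrays and -0.06 ± 0.092 on the H99 arrays, with limma adjusted p-values of 0.635 and 0.777.

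Among single clones, 4 of 22 hsp70-5 clones were called for forward minus reversed on the H99 arrays, all negative, and 1 of 20 hsp70-4 clones, also negative. Of all tested clones 4.31% were called and 3.21% were called negative. For hsp70-5 they were clone 8 at -0.83 ± 0.139 (SE, limma adjusted p = 0.00608), clone 17 at -0.65 ± 0.113 (limma adjusted p = 0.00627), clone 2 at -0.42 ± 0.102 (limma adjusted p = 0.0300) and clone 6 at -0.41 ± 0.0947 (limma adjusted p = 0.0236). Clone 17, called in no other contrast, had 0.12, 0.09, 0.31, 0.06 and 0.08 on the B73 arrays and -0.28, -0.30, -0.59, 0.22 and 0.30 on the H99 arrays. Clone 18 of hsp70-4 had -0.49 ± 0.0986 (SE, limma adjusted p = 0.0142). Its H99 values were -0.26, -0.26 and -0.40 on the forward arrays and 0.10 and 0.27 on the reversed ones. On the B73 arrays 3 hsp70-5 clones (8, 12 and 21) were called negative and 2 hsp70-4 clones were called, clone 12 negative and clone 14 positive, where 15.4% of all tested clones were called, 6.93% positive and 8.49% negative.

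The orientation pattern crossed the sign of L1. The 9 hsp70-5 clones with a positive L1 had a median forward H99 mean of -0.20 and a median reversed H99 mean of 0.22. For the 13 with a negative L1 these medians were -0.18 and 0.03. Both sets of clones were thus low on the forward H99 arrays, although they differed in sign on the B73 arrays. Whether the reversed H99 arrays share the direction of the forward ones is not settled by these values.

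**Figure D4:**
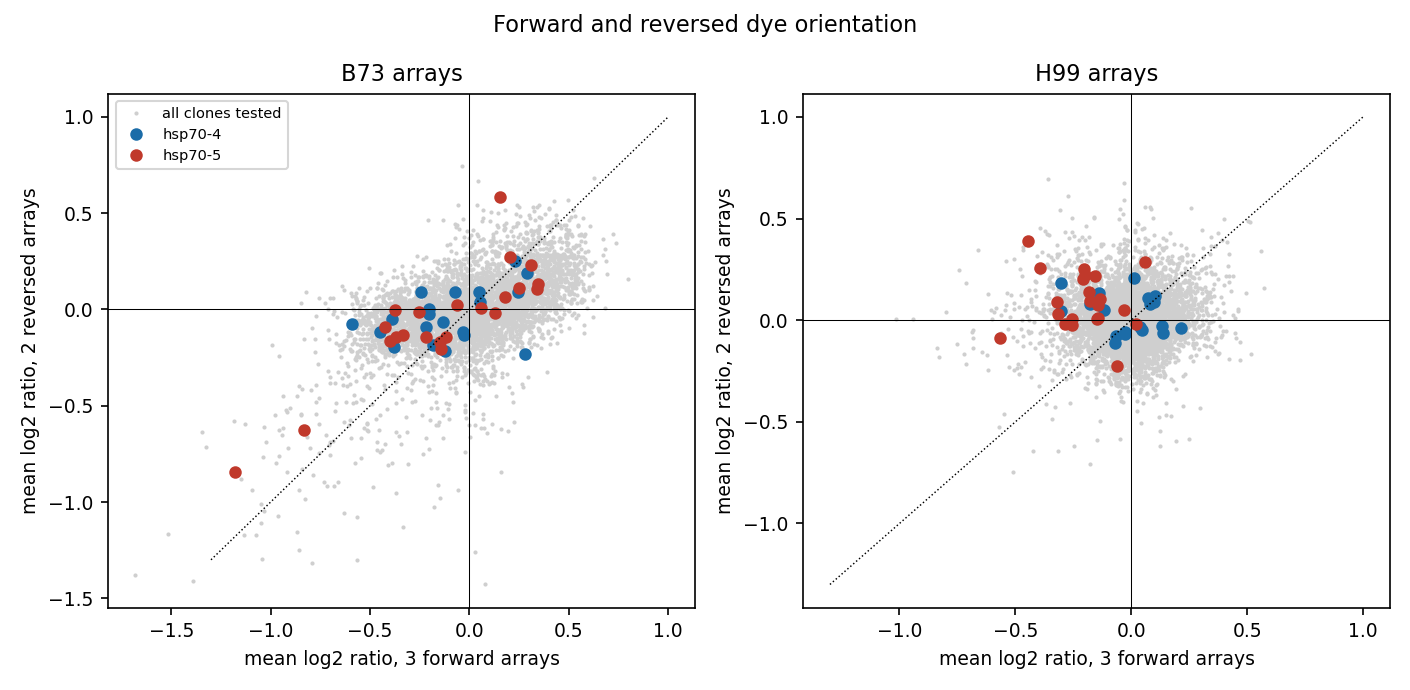
Mean log2 ratio on the 3 forward arrays (horizontal axis) and on the 2 reversed arrays (vertical axis) for each tested clone, B73 arrays at the left and H99 arrays at the right. Grey points are all tested clones and the dotted line marks equal values. On the H99 arrays 20 of 22 hsp70-5 clones (red) lie above the line.

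L1 minus L2, which compares B73 with H99 through the hybrid, was called for 4 of 22 hsp70-5 clones and 2 of 20 hsp70-4 clones, against 20.3% of all tested clones (11.2% positive and 9.15% negative). Clone 22 of hsp70-5 had the lowest adjusted p, with L1 minus L2 at -0.57 ± 0.119 (SE, limma adjusted p = 0.00552). Clone 9 lay at -0.67 ± 0.189 (SE, limma adjusted p = 0.0208), and its call was lost without B73 replicate 1 (adjusted p = 0.0604) or B73 replicate 2 (adjusted p = 0.0638). In the opposite direction clone 3 had 0.41 ± 0.128 and clone 16 had 0.33 ± 0.0869 (SE, limma adjusted p = 0.0319 and 0.0158). For hsp70-4 the called clones were clone 2 at -0.43 ± 0.105 and clone 18 at 0.35 ± 0.111 (SE, limma adjusted p = 0.0116 and 0.0359). The calls of clones 16 and 22 of hsp70-5 and clone 2 of hsp70-4 held without any single array. That of clone 18 was lost when any single forward array of either inbred was left out, and that of clone 3 when any single forward B73 array or H99 replicate 2 or 3 was. The B73 and H99 values did not overlap for hsp70-5 clones 3, 16 and 22, which is 3 of 22, and for 0 of the 19 hsp70-4 clones with all values, while 11.7% of all such clones showed this.

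For d, 8 of 22 hsp70-5 clones were called, all negative, where 25.2% of all tested clones were called and 12.7% were called negative. They were clones 9 and 22, at -0.71 ± 0.0944 and -0.46 ± 0.0593 (SE, limma adjusted p = 5.76e-05 and 3.80e-05), and clones 5, 10, 12, 13, 15 and 18, between -0.24 and -0.15. The d of clones 9, 13, 15 and 22 stayed past the threshold without any single array; those of clones 5, 10, 12 and 18 did not. For hsp70-4 there were 3 of 20, with clones 12 and 11 at -0.22 and -0.17 and clone 10 at 0.17 (limma adjusted p = 0.0234, 0.0365 and 0.0145). Of these only the d of clone 10 held without any single array.

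In the study, a clone's dominance class came from d divided by the absolute value of a. Among the 6 clones called for L1 minus L2, the ratio was -2.12 for hsp70-5 clone 9 (95% Fieller interval -5.34 to -1.20) and -1.62 for clone 22 (-3.0 to -1.005). Both intervals lie below -1, which is the overdominant class of that scheme, with the upper bound of clone 22 only just below it. For both clones a was positive and d plus a equals L2, so this amounts to an unadjusted test of whether L2 is negative. Over all tested clones 15.4% had an unadjusted limma p under 0.05 for L2. After adjustment L2 was called for neither clone 9 nor clone 22 (limma adjusted p = 0.174 and 0.318), and both were positive on H99 replicate 4. The class is thus no evidence apart from L2, which did not show a difference between hybrid and H99. The L1 minus L2 call of clone 9 was also lost without B73 replicate 1 or B73 replicate 2. Ratios of the other 4 were 0.26 for clone 3 and 0.50 for clone 16 of hsp70-5, and -0.48 for clone 2 and 0.37 for clone 18 of hsp70-4, and their intervals did not place them in a single class. Of all clones called for L1 minus L2, 5.05% fell in this class, which is 1.03% of all tested clones. With the reversed B73 arrays turned, L1 minus L2 was 0.0042 for clone 9 and -0.07 for clone 22, neither past the threshold (limma adjusted p = 0.996 and 0.924), so the class rests on those arrays as deposited. For the gene mean of hsp70-5, L1 minus L2 was not called.

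Clones of one gene did not follow each other closely over the arrays. The mean pairwise Pearson r over the 10 arrays was 0.233 among the clones of hsp70-5, 0.0543 among those of hsp70-4 and 0.0485 between the genes, against 0.00203 among all clones. Values also went with the place of a clone in the deposited table. L1 of the 42 tested member clones correlated at 0.492 with the median L1 of the 3 clones before and the 3 after, and had the same sign in 29 of 42 (69.0%). Over all 5357 tested clones r was 0.428 and the sign was the same in 65.8%. For hsp70-4 alone r was 0.608. For hsp70-5 alone it was 0.495, and 0.164 without clones 9 and 22, whose neighbours were negative too but much nearer to 0, at -0.27 and -0.18. With the neighbours' median subtracted on each array (chosen after the values were seen) L1 of hsp70-4 clone 10 was -0.0015, its neighbours lying at 0.25, and 21 of 42 member clones were called for L1 in place of 23, with 2062 in place of 2235 over all tested clones.

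**Figure D5:**
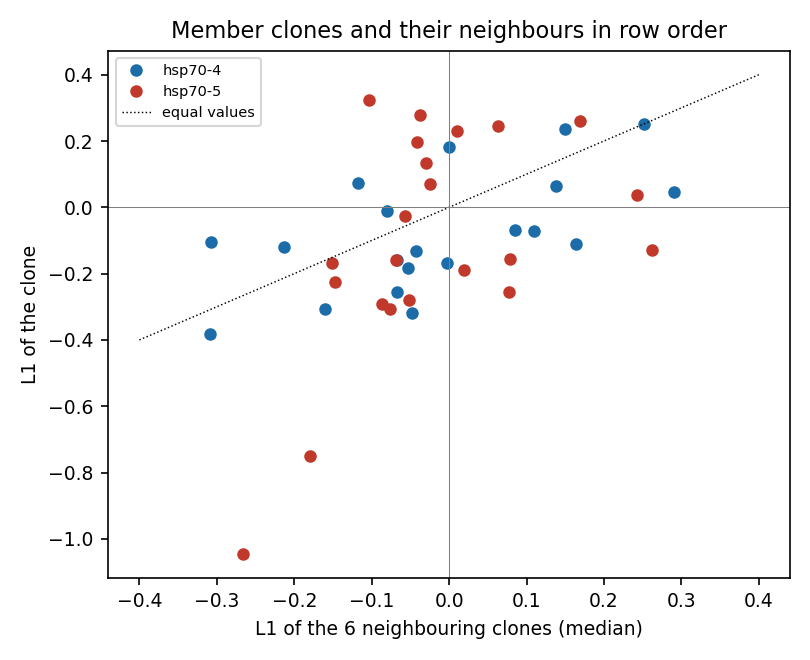
L1 of each tested member clone (vertical axis, log2) against the median L1 of the 3 clones before and the 3 clones after it in the deposited table (horizontal axis, log2), with the dotted line at equal values. Member clones share the sign of their neighbours in 29 of 42 cases (69.0%, against 65.8% of all tested clones), and clones 9 and 22 of hsp70-5 lie far below the line.

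The other annotated chaperone and heat shock genes were few, 7 genes with 14 clones, all tested. They were the small heat shock proteins HSP18, hsp18f and hsp22, which hold unfolded proteins until HSP70 takes them over, and the endoplasmic reticulum folding factors pdi and pdi12 (protein disulfide isomerases), CNX (calnexin) and CRH (calreticulin). Of the 7 gene means, 1 was called for L1, that of hsp18f at -0.22 ± 0.0768 (SE, limma adjusted p = 0.0288), and none for L2, L1 minus L2 or d, where 40.4%, 0.987%, 19.5% and 24.1% of all entries were called. By clone, 5 of 14 were called negative and 1 positive for L1, against 20.7% and 21% of all tested clones. For L1 minus L2 there were 3 negative and 0 positive, against 9.15% and 11.2%, and for d 2 negative and 1 positive, against 12.7% and 12.5%. For L2 limma called 0 of 14, against 1.23%. Their median L1 was -0.09 and their median L2 was 0.01. Forward and reversed H99 means were 0.08 and 0.18 for HSP18, 0.12 and -0.03 for hsp18f, 0.05 and 0.07 for pdi and -0.14 and 0.02 for pdi12, so that only pdi12 had the signs seen in hsp70-5.

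Over the 10 arrays, the gene means most like that of hsp70-5 among 69 annotated genes with at least 3 clones were those of gst11 (a glutathione S-transferase; Pearson r = 0.951), zap1 (a MADS-box factor; 0.836), the alpha-tubulins tua5 (0.778) and tua6 (0.739), and the aquaporin PIP1-3 (0.715). All 5 had a higher mean on the reversed than on the forward H99 arrays. For gst11 the means were -0.10 on the forward and 0.30 on the reversed arrays. Because these genes were chosen for likeness over the same arrays, a shared difference between the H99 orientations is partly built into the choice. The gene means most like that of hsp70-4 were those of phb2 (a prohibitin, 0.850), his1a (a histone H1, 0.842), SRP2B (0.824), ss2 (0.801) and the aquaporin PIP2-1 (0.795). Between hsp70-4 and hsp70-5 r was 0.372, which ranked hsp70-5 at 22 for hsp70-4 and hsp70-4 at 15 for hsp70-5. These correlations share the arrays, the RNA pools and the hybrid channel.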

How the data were processed

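The deposited table holds the log2 ratio of the 2 channels of each spot on each of 10 arrays, made by the authors; array medians lay between -0.001 and 0, which shows that values were centred before deposit. The scale and the definitions of L1, L2, a and d come from the study's design text. How the arrays were scanned, normalized and filtered is not stated in these sources. Per the labels' protocols, poly(A) RNA from pooled extractions was labelled separately for each array. The design text defines L1, L2 and d with the ratio of hybrid to inbred, but the direction of the deposited ratio stays unknown.

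The means of 3 successive spots gave 5400 clones, named from the platform annotation (811 clones, 213 genes, 208 of them found in RefSeq Zm-B73-REFERENCE-NAM-5.0; both members matched there by synonym). Clones with at least 3 values per inbred and at least 1 per dye orientation were tested. limma 3.58.1 in R 4.3.3 fitted a mean per inbred over all 10 arrays, and a second fit a mean per inbred and orientation; p-values were adjusted over all 5357 clones, or over 4763 entries for gene means. Errors are SD between arrays or SE from limma. The fit was tested on simulated data with known changes. A log2 change of 0.25 was recovered in 55.2% of the changed clones for L1 and 49.3% for L2. Changes of 0.5 and 1 were recovered in 100%.

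Described with their array values were the clones called for L1, L2, L1 minus L2 or d and the extremes of each gene in L1 and L2. The other chaperone genes were found by symbol and synonym, since the RefSeq table used here holds no descriptions. Members, lists and tests were chosen with earlier results of these data known. The alternatives were the direction, use and weight of reversed arrays, the normalization, variance, missing values, spot and clone summaries, the replicate block, each array left out, and neighbours subtracted.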

Additional observations from a re-analysis of the deposited data

Results flagged for a closer look

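A single array lay far from the other 4 of its inbred in 3 of 87 sets of 5 arrays tested with Dixon's ratio (all tested member clones with 5 values and both gene means, per inbred); chance flags about 1 in 20 such sets. In 2 of them the array was H99 replicate 3. It held -0.74 for hsp70-5 clone 3, where the other H99 arrays lay between -0.06 and 0.04, and -0.70 for hsp70-4 clone 1, where they lay between -0.15 and 0.05. The other was B73 replicate 3 for hsp70-5 clone 17, at 0.31 where the other B73 arrays lay between 0.06 and 0.12.

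The test of L1 minus L2, the difference between the B73 and the H99 arrays, passed for 6 member clones. These were 18.2% of the hsp70-5 clones and 10% of the tested hsp70-4 clones, against 20.3% of all tested clones. Negative differences were those of hsp70-5 clone 9 at -0.67 and clone 22 at -0.57, and of hsp70-4 clone 2 at -0.43. Positive ones were those of hsp70-5 clone 3 at 0.41 and clone 16 at 0.33, and of hsp70-4 clone 18 at 0.35. Without H99 replicate 3 the difference of clone 3 was 0.27 (limma adjusted p = 0.0559).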

How the results depend on the processing

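Of 40 called values of single clones, 19 held whichever array was left out, and none changed sign in that way. Most losses came without B73 replicate 1 (17), B73 replicate 2 (18) or B73 replicate 3 (15). Leaving out each array in turn gave 13 to 24 member clones called for L1, 3 to 11 for L1 minus L2 and 6 to 15 for d (23, 6 and 11 with all arrays). Over all clones it gave 1399 to 2477, 592 to 1499 and 721 to 1735 (2235, 1089 and 1352 with all arrays), and for L2 14 to 101 (66 with all arrays). The gene mean of hsp70-4 then had an L2 of -0.0228 (without H99 replicate 4) to 0.0101, and that of hsp70-5 an L2 of -0.1466 (without H99 replicate 4) to -0.0466 (without H99 replicate 3) and an L1 minus L2 of -0.0537 to 0.0463 (without H99 replicate 4).

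With the reversed B73 arrays turned, no member clone was called (0 for L1, L1 minus L2 and d), and over all clones 0, 2 and 2 were, and 13 for L2; L1 of hsp70-4 clone 17 was 0.0140, L1 minus L2 of hsp70-5 clone 9 was 0.0042, and L1 minus L2 of the hsp70-5 mean was 0.0290. Turning the reversed arrays of both inbreds left 0 calls in every contrast, and gave 0.0140 for L1 of hsp70-4 clone 17, 0.0243 for d of hsp70-5 clone 10, -0.0264 for L2 of the hsp70-4 mean and 0.1038 for L1 minus L2 of the hsp70-5 mean. With only those of H99 turned, 3 member clones were called for L2 and 14 for L1 minus L2, and over all clones 41 for L2, 1516 for L1 minus L2 and 666 for d; the hsp70-4 mean had an L2 of -0.0264, and the hsp70-5 mean an L1 minus L2 of 0.0615 and a d of -0.1311, past the threshold.

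Forward arrays alone gave 10 member calls for L2 and 23 for L1 minus L2 (709 and 2389 over all clones, and 2115 for d), an L2 of -0.0218 for hsp70-4, and for hsp70-5 an L2 of -0.2074, an L1 minus L2 of 0.0754 and a d of -0.1697. Reversed arrays alone gave 5 member calls for L1 and 1 for L1 minus L2 (521 and 76 over all clones, and 722 for d), an L2 of 0.0935 and a d of 0.0203 for hsp70-5, and a d of 0.0077 for hsp70-4 clone 12 and 0.0022 for hsp70-5 clone 12. Orientations weighted equally gave 12 member calls for L1 minus L2 and 18 for d (1543 and 2043 over all clones, and 303 for L2).

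Arrays scaled to one spread gave 9, 2 and 7 member calls for L1, L1 minus L2 and d (1143, 470 and 850 over all clones, and 309 for L2) and an hsp70-5 L1 minus L2 of 0.0123. Quantile normalization gave 9, 1 and 2 for L1, L2 and L1 minus L2 (1338, 430 and 650 over all clones) and 0.0240. Each clone's own variance gave 12, 2 and 6 for L1, L1 minus L2 and d (1787, 457 and 704 over all clones, and 7 for L2). The median over clones gave an hsp70-5 L1 minus L2 of 0.0054. With the neighbours' median subtracted, L1 of hsp70-4 clone 10 was -0.0015, d of hsp70-4 clone 12 was 0.0485 and 178 clones were called for L2. The cause of these changes was not tested.

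Same-numbered B73 and H99 arrays deviated together at r of 0.17, 0.065, -0.306, 0.308 and -0.092, and only replicate 4 of B73 correlated best with its own number. Deviations from the mean of an inbred also carry the dye orientation. These values therefore do not settle whether the numbers pair the arrays. With the replicate number as a block (replicate block), 21 member clones were called for L1, 0 for L2, 7 for L1 minus L2 and 10 for d (2078, 59, 824 and 1107 over all clones), and the gene means stayed below the threshold. Signal over background could not be examined, since ratios carry no intensity, and the number of arrays limits the precision.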
